A study of Mus musculus with 50 samples.

Results

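The neurexins, the neuroligins and the leucine-rich repeat transmembrane proteins (LRRTMs) are 3 families of cell adhesion molecules that meet across the synapse. Here 9 of their genes were followed by symbol in the deposited counts of mouse nucleus accumbens (NAc): *Nrxn2*, *Nrxn3*, *Nlgn1*, *Nlgn2*, *Nlgn3*, *Lrrtm1*, *Lrrtm2*, *Lrrtm3* and *Lrrtm4*. All 9 were among the 24552 genes of both count tables, and all 9 passed the filter on low counts in each model. Other genes of these families were not analysed here.

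Neurexins sit mostly on the presynaptic side, where they help to organise the release site, and each neurexin gene gives long and short forms from separate promoters as well as many splice forms. Neuroligins and LRRTMs are postsynaptic partners of neurexins. Neuroligin 1 is best known from excitatory synapses, neuroligin 2 from inhibitory synapses and neuroligin 3 from both, while LRRTMs act at excitatory synapses, where they help to hold glutamate receptors in place. Medium spiny neurons (MSNs), the GABAergic projection neurons of the NAc, receive glutamatergic input and send inhibitory output, so that they use molecules of both kinds. They fall into a type with the D1 and a type with the D2 dopamine receptor.

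RNA bound to ribosomes was taken from each type with RiboTag (RT), a ribosomal protein allele that carries an HA tag after Cre recombination, in C57BL/6 mice of genotype RT; D1-Cre or RT; D2-Cre at 8 to 12 weeks of age, with 2 mice pooled per sample. The libraries came from immunoprecipitates (IPs) of D1 Con (4), D1 Res (4), D1 Sus (5), D2 Con (5), D2 Res (5) and D2 Sus (5), and from 18 inputs, the supernatant left from the homogenates, with 3 per line and stress group. Con mice were not defeated, and mice after chronic social defeat were sorted by social interaction into resilient (Res) and susceptible (Sus). In addition, 4 D1 Con libraries labelled Sirt1-KO came from male RT; Sirt1-floxed; D1-Cre mice without defeat, whose age the labels do not give. The Cre drivers were bacterial artificial chromosome transgenes, which mark any NAc cell that uses the D1 or the D2 promoter and not MSNs alone.

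Depth ran from 21591075 to 31009626 counts on genes in the 28 IPs, from 18384265 to 28179940 in the 18 inputs and from 22174187 to 31785984 in the 4 Sirt1-KO libraries. Levels are given below as counts per 1e6 counts after scaling of the libraries with TMM factors (CPM). The labelled cell types were checked with marker genes fixed as lists. Between control IPs, 4 of 4 D1-MSN markers were higher in D1 and 4 of 4 D2-MSN markers were higher in D2. The summed level of the D1-MSN markers was 1081 to 1573 CPM in D1 IPs and 399 to 657 CPM in D2 IPs, and that of the D2-MSN markers was 2023 to 3516 and 5746 to 8140 CPM. In inputs these sums were 443 to 694 CPM for the D1-MSN and 765 to 1306 CPM for the D2-MSN markers. The D2-MSN markers were thus higher in D1 IPs than in inputs, so D1 IPs also held RNA of D2-MSN markers. Its part in the comparisons below was not tested. Markers of other neurons differed as well: the 6 cortical excitatory markers summed to 407 to 1401 CPM in D1 IPs, 22.3 to 320 CPM in D2 IPs and 73.1 to 1108 CPM in inputs, and the 4 cholinergic interneuron markers to 7.48 to 28.8, 56.6 to 123 and 39.0 to 118 CPM. No marker of either list was at 0 in a whole group. In bulk libraries, fewer cells of a type and less RNA per cell cannot be told apart.

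The sequences just before the annotated start of the gene with the highest level in each family are shown as the reference sequence at these loci. *Nrxn3* has 3 annotated starts, of which 1 is shown, and no rule chose among them. The windows are the 250 bases before a RefSeq start on GRCm38.p6, written 5′ to 3′ on the strand of the gene, with matches to the GC box GGGCGG in capitals.
Nlgn2, chr11:69837785-69838034, − strand: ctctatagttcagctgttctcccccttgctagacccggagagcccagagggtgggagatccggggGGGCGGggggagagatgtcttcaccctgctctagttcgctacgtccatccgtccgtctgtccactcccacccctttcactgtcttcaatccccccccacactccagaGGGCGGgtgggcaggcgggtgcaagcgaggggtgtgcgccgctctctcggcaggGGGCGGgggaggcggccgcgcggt
Nrxn3, the third annotated start, chr12:89812233-89812482, + strand: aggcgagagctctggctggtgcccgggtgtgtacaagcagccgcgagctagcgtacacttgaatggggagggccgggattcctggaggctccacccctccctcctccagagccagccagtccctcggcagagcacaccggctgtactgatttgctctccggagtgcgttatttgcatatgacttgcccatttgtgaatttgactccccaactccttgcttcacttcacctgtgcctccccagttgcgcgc
Lrrtm3, chr10:64090256-64090505, − strand: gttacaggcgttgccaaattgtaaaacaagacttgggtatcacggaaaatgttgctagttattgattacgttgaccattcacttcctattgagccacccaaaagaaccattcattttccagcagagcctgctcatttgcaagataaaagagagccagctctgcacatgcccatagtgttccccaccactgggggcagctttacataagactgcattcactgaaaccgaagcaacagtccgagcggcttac
The *Nlgn2* sequence held 67.6% G and C and 18 CpG dinucleotides, the *Nrxn3* sequence 60% and 12, and the *Lrrtm3* sequence 46% and 6. At the first and the second annotated start of *Nrxn3*, not shown, the values were 45.6% and 2, and 46.8% and 5. Over 32851 annotated promoters of the same length the medians were 52.4% and 6. *Nlgn2* had 3 matches to the GC box, a motif found on either strand in 32.7% of promoters, and the other 2 sequences had none. Of the E-box CACGTG (6.0% of promoters), the cyclic AMP response element TGACGTCA (1.5%) and the TATA box TATAAA (12.4%), also searched on both strands, none was in these 3 sequences. A match is a run of letters and not a measured binding site. RefSeq windows were matched for 6 of the 9 genes.

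The 9 genes lie on 8 chromosomes of GRCm38, the assembly called mm10, in the GENCODE vM21 annotation. *Nrxn2* is at chr19:6418731-6544169 on the + strand, and *Nrxn3* spans 1612060 bases at chr12:88722876-90334935 on the + strand. *Nlgn1* is at chr3:25426215-26332460 on the − strand, *Nlgn2* at chr11:69823122-69837784 on the − strand and *Nlgn3* at chrX:101299168-101325963 on the + strand. *Lrrtm1* (chr6:77242689-77257791, +), *Lrrtm2* (chr18:35209003-35215024, −) and *Lrrtm3* (chr10:63928472-64090277, −) each lie inside a gene of an alpha-catenin, *Ctnna2*, *Ctnna1* and *Ctnna3*. *Lrrtm4* is at chr6:80018877-80810143 on the + strand. *Lrrtm1* and *Lrrtm3* shared 0 exonic bases with their host genes, and *Lrrtm2* shared 95 bases, 1.58% of its exons, with *Ctnna1* on the opposite strand. *Nrxn2* shared 682 bases (4.94%) with *Slc22a12* on the opposite strand, a gene with 0 to 5 counts in the 50 libraries. The largest overlaps were with annotated transcripts that have no count of their own. On the same strand, 3823 bases (41.2% of the exons) of *Nlgn3* are also annotated as Gm21986. On the opposite strand, 1543 bases (25.1%) of *Lrrtm4* are annotated as Gm4409 and 1229 bases (9.16%) of *Nlgn1* as A830092H15Rik. The annotation and the strand setting of the counting are not given in the sources used here. The count of *Nlgn3* is uncertain to the extent that its annotation is unknown, and those of *Lrrtm4*, *Nlgn1* and *Nrxn2* also for the strand. A gene count also sums the long, short and spliced forms of a neurexin.

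Levels were compared between genes only per length, as CPM per kb of annotated exon. *Nlgn2* had the highest level in each kind of library, at 74.3 ± 2.53 CPM per kb (SD, n = 13) in D1 IPs, 73.6 ± 2.30 (SD, n = 15) in D2 IPs and 50.3 ± 1.42 (SD, n = 18) in inputs. *Nrxn3* followed with 47.4 ± 3.40, 52.4 ± 1.77 and 26.2 ± 1.74 CPM per kb, then *Nrxn2* with 31.4 ± 2.04, 33.6 ± 1.49 and 25.1 ± 2.25. In both kinds of IP the libraries of *Nlgn2* and *Nrxn3* did not overlap in level, nor did those of *Nrxn3* and *Nrxn2*, whereas in inputs the 2 neurexins overlapped.

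Among the LRRTMs the order was *Lrrtm3* (29.8 ± 2.64 CPM per kb in D1 IPs and 33.5 ± 1.57 in D2 IPs), *Lrrtm1* (23.4 ± 2.32 and 25.6 ± 1.33), *Lrrtm2* (11.4 ± 1.14 and 12.5 ± 1.51) and *Lrrtm4* (10.6 ± 0.783 and 10.5 ± 1.00). *Lrrtm3* overlapped *Nrxn2* above it in both kinds of IP, and *Lrrtm1* overlapped *Lrrtm3* in D1 IPs but not in D2 IPs. *Lrrtm2* and *Lrrtm4* overlapped each other there, so their order is not fixed by these libraries. *Nlgn3*, at 14.2 ± 1.55 and 14.6 ± 1.35 CPM per kb, overlapped *Lrrtm2*, and *Nlgn1*, the lowest at 9.09 ± 0.666 and 8.34 ± 0.531, overlapped *Lrrtm4*. In inputs *Lrrtm2*, at 13.1 ± 1.09 CPM per kb, stood just above *Nlgn3* at 12.1 ± 0.591, with overlapping libraries. The order depends on the length used: per kb of the longest annotated transcript, *Nrxn3* stood at 83.4 ± 2.82 in D2 IPs, above *Nlgn2* at 76.5 ± 2.39, and *Nrxn2* at 69.5 ± 3.09. On that scale *Nrxn2*, at 52.0 ± 4.66, was above *Nrxn3*, at 41.7 ± 2.76, in inputs.

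**Figure D1:**
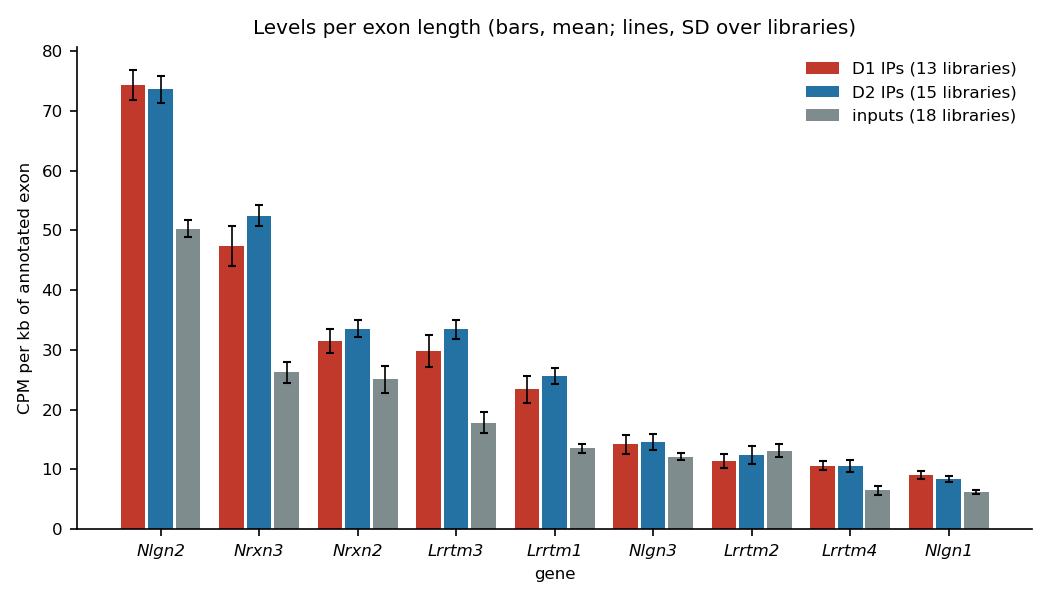
Mean level per exon length of the 9 genes, in CPM per kb, in D1 IPs (13 libraries), D2 IPs (15 libraries) and inputs (18 libraries), with the SD over libraries as lines. *Nlgn2* has the tallest bar in all 3 kinds of library, from 50.3 in inputs to 74.3 in D1 IPs, and *Lrrtm2* is the gene whose input bar, at 13.1, is above both IP bars.

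Within families the make-up of the summed level moved from input to IP. *Nrxn3* made up 60.1% ± 2.75 of the level of the 2 neurexins in D1 IPs (SD, n = 13), 61.0% ± 1.43 in D2 IPs (SD, n = 15) and 51.1% ± 3.29 in inputs (SD, n = 18). Per kb of the longest transcript these shares were 53.6% ± 2.85, 54.5% ± 1.49 and 44.6% ± 3.24, so that which neurexin was larger in inputs depends on the length. *Nlgn2* made up 76.2% ± 0.993, 76.2% ± 1.16 and 73.4% ± 0.817 of the 3 neuroligins. *Lrrtm2* made up 15.2% ± 1.93, 15.1% ± 1.27 and 25.7% ± 2.17 of the 4 LRRTMs, with all 28 IPs at or below 19.3% and all 18 inputs at or above 23.1%. These shares use one scale per library and one length per gene, and are descriptions with no test.

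The first comparison set the RNA on ribosomes of each MSN type against whole tissue in control mice. In D1, 8 of the 9 genes were higher in IPs and *Lrrtm2* was lower, at an adjusted p under 0.05 in the edgeR quasi-likelihood test. In D2, 8 of 9 were higher and *Lrrtm2* did not pass. Of all genes tested, 70.4% were called in D1 and 71.7% in D2, 34.5% as higher in each. The median log2 fold change of the 9 genes was 0.60 in D1 and 0.52 in D2, and that of all genes was −0.02 and −0.05. A fold over 1.5 was reached by 5 of 9 genes in D1 and 3 of 9 in D2, beside 41.4% and 42.6% of all genes. The IPs and inputs did not overlap for 8 of 9 genes in D1 and 7 of 9 in D2, beside 69.3% and 66.0% of all genes.

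*Nrxn3* was at 635, 550, 644 and 581 CPM in the D1 Con IPs and at 357, 340 and 330 CPM in their inputs. In D2 Con it was at 683, 657, 646, 656 and 679 CPM in IPs and 299, 321 and 330 CPM in inputs. Every IP was above every input, by 0.80 on the log2 scale in D1 (SE 0.06, adjusted p = 8.08e-10) and by 1.04 in D2 (SE 0.06, adjusted p = 1.49e-11). *Nrxn2* rose less, by 0.31 (SE 0.08, adjusted p = 0.00202) and 0.34 (SE 0.08, adjusted p = 0.000597). The difference between the D1 and the D2 enrichment of *Nrxn3* was −0.24 and did not pass (adjusted p = 0.0948), though it passed with library totals and no TMM factors (−0.32, adjusted p = 0.0302), where the median over all genes was −0.11. None of the 9 genes passed that test of the difference, beside 5.09% of all genes, and *Nrxn3* was the one member with an unadjusted p under 0.05, beside 19.7% of all genes.

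Among the neuroligins, *Nlgn2* was at 464, 434, 415 and 423 CPM in D1 Con IPs and 287, 282 and 280 CPM in inputs. In D2 Con it was at 433, 434, 414, 422 and 464 CPM in IPs and 301, 294 and 291 CPM in inputs. Both sets of IPs lay wholly above their inputs, with log2 fold changes of 0.60 (SE 0.05) and 0.52 (SE 0.05). *Nlgn1* rose by 0.56 (SE 0.08) in D1 and 0.39 (SE 0.08) in D2. *Nlgn3* had the smallest rise, 0.31 (SE 0.09, adjusted p = 0.00665) in D1 and 0.25 (SE 0.09, adjusted p = 0.0179) in D2, and its D2 libraries overlapped. With the sample number as a block, since an input is left over from a homogenate of the same study sample, *Nlgn3* lost its call in D2 (0.17, adjusted p = 0.071), which left 7 of 9. It also lost that call without D2 Con input 1 (0.23, adjusted p = 0.0657).

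The 4 LRRTMs split. *Lrrtm1* was at 88.7, 64.5, 68.2 and 63.2 CPM in D1 Con IPs and 42.2, 40.7 and 37.0 CPM in inputs, and at 74.8, 77.2, 80.8, 77.7 and 79.5 CPM in D2 Con IPs and 40.5, 41.1 and 40.8 CPM in inputs. Its log2 fold changes, 0.81 (SE 0.09) and 0.90 (SE 0.09), were among the largest of the 9 genes, together with those of *Nrxn3* given above and of *Lrrtm3*, 0.70 (SE 0.09) and 0.90 (SE 0.09). *Lrrtm4* rose by 0.65 (SE 0.08) and 0.58 (SE 0.08). *Lrrtm2*, which binds neurexins and glutamate receptors of the AMPA type, went the other way.

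*Lrrtm2* was at 56.5, 77.7, 67.1 and 62.4 CPM in D1 Con IPs and 76.4, 76.9 and 90.5 CPM in inputs. In D2 Con it was at 67.6, 69.3, 79.5, 74.4 and 60.0 CPM in IPs and 91.8, 75.5 and 72.9 CPM in inputs. The libraries overlapped in both lines. The log2 fold change was −0.31 (SE 0.11, adjusted p = 0.0174) in D1 and −0.22 (SE 0.11, adjusted p = 0.075) in D2. Without D1 Con replicate 1 or D1 Con input replicate 3 the D1 call was lost (adjusted p = 0.0594 and 0.117), and without D2 Con replicate 3 the D2 difference was called (−0.27, adjusted p = 0.0344). Over all 46 IPs and inputs, with the mean of the 3 stress groups, it was −0.22 (adjusted p = 0.00187) in D1 and −0.11 (adjusted p = 0.0869) in D2.

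**Figure D2:**
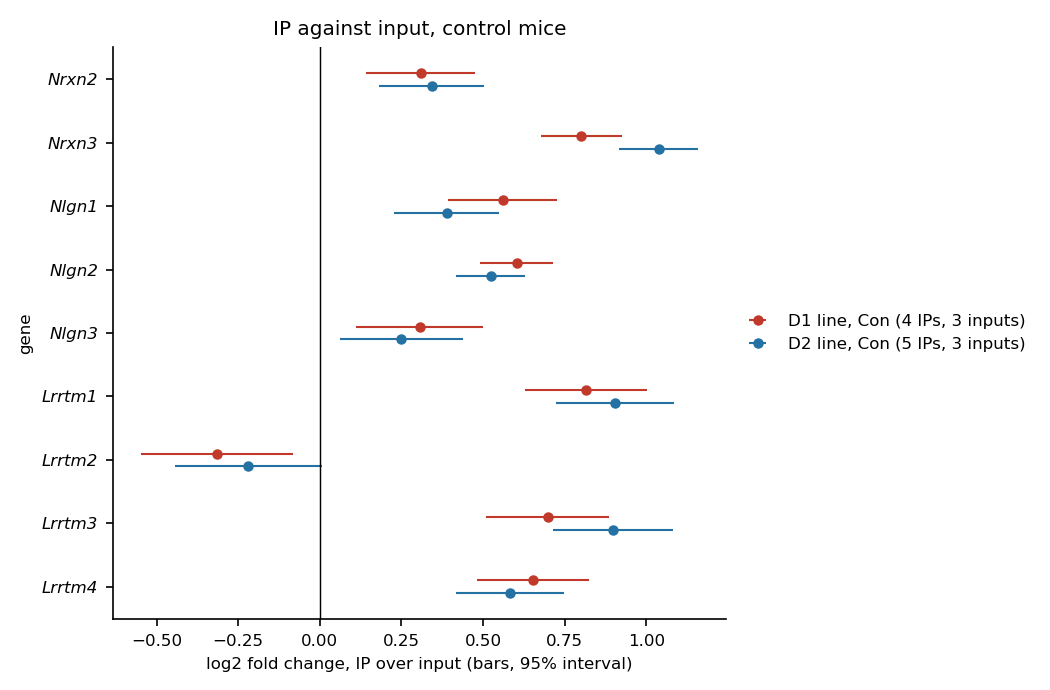
Log2 fold change of control IPs over control inputs for the 9 genes, with 95% confidence intervals, in D1 and in D2. The points of *Lrrtm2* lie at −0.31 and −0.22, left of 0, and those of the other 8 genes lie right of 0, up to 1.04 for *Nrxn3* in D2.

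The size of these rises depends on how IPs and inputs are put on one scale. With library totals and no TMM factors, the median over all genes moved to −0.27 in D1 and −0.21 in D2, the higher genes made up 29.7% of all calls in D1 and 35.5% in D2 in place of 49.0% and 48.1%, and *Nrxn2* (0.06 and 0.18) and *Nlgn3* (0.06 and 0.08) lost their calls in both lines, while *Lrrtm2* was called lower in both (−0.56, adjusted p = 0.000262, and −0.38, adjusted p = 0.00481). The markers of astrocytes, oligodendrocytes, their precursors, microglia and endothelial cells were lower in IPs without exception in both lines, with medians from −4.47 to −3.20 in D1 and −4.13 to −3.38 in D2. Both general neuron markers were higher. The share of reads on no annotated feature was 12.7% ± 2.07 in IPs (SD, n = 28) and 25.4% ± 0.991 in inputs (SD, n = 18). The part of these differences in the values of the 9 genes was not tested.

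The next comparison set D1-MSNs against D2-MSNs. In control mice 0 of the 9 genes were called, beside 14.0% of all genes, and 2 of 9 had an unadjusted p under 0.05, beside 27.0%. In resilient mice 1 of 9 was called, beside 17.5%, and in susceptible mice 0 of 9, beside 17.6%, with 4 and 3 genes at an unadjusted p under 0.05, beside 30.3% and 29.8%. DESeq2 gave the same 3 counts of calls. The 95% intervals of the 9 differences lay within 0.830 to 1.22-fold in Con, 0.732 to 1.23-fold in Res and 0.825 to 1.18-fold in Sus, so that differences beyond these folds were outside the intervals at this depth.

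*Nrxn3* was lower in D1 in each stress group. In D1 Con its 4 IPs, at 550 to 644 CPM, lay below the 5 D2 Con IPs, at 646 to 683 CPM (log2 fold change −0.12, SE 0.06, adjusted p = 0.155). In D1 Res it was at 589, 543, 606 and 622 CPM, and in D2 Res at 622, 656, 683, 674 and 657 CPM. In D1 Sus it was at 650, 618, 531, 546 and 643 CPM, and in D2 Sus at 713, 640, 655, 657 and 637 CPM. The groups did not overlap in Con and Res and overlapped in Sus, with log2 fold changes of −0.14 (adjusted p = 0.0838) in Res and −0.13 (adjusted p = 0.09) in Sus. The gaps were narrow: the nearest D1 and D2 libraries were at 644.1 and 645.9 CPM in Con and at 622.0 and 622.2 CPM in Res. Without D1 Sus replicate 1 or D1 Sus replicate 5 the susceptible difference was called (adjusted p = 0.0471 and 0.0476). Groups that did not overlap were seen for 1 of 9 genes in Con, 2 of 9 in Res and 0 of 9 in Sus, beside 13.1%, 16.9% and 11.7% of all genes.

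*Lrrtm3* was the gene called in resilient mice. It was at 116, 130, 128 and 134 CPM in D1 Res and at 144, 145, 157, 151 and 135 CPM in D2 Res, with no overlap. The log2 fold change was −0.19 (SE 0.06, adjusted p = 0.0326). The call was lost without D1 Res replicate 1 (adjusted p = 0.157) or 3 (0.0637) and without D2 Res replicate 3 (0.0835) or 4 (0.0699). In Con the difference was −0.09 and in Sus −0.15 (adjusted p = 0.0698), and the susceptible difference was called without D1 Sus replicate 5 (adjusted p = 0.0393).

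*Nlgn1* had the opposite sign. It was at 136, 112, 135 and 112 CPM in D1 Con and at 104, 109, 121, 119 and 110 CPM in D2 Con, where 2 of the 4 D1 libraries lay within the D2 range. The log2 fold change was 0.16 (SE 0.06, adjusted p = 0.0992) in Con, 0.17 (adjusted p = 0.0701) in Res and 0.12 (adjusted p = 0.205) in Sus. *Nlgn2*, with 0.02, 0.04 and 0.04, *Nlgn3*, with −0.05, −0.02 and −0.02, and *Nrxn2*, with −0.10, −0.04 and −0.09, did not pass in any stress group.

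*Lrrtm1* in control mice turned on 1 library. D1 Con replicate 1 was at 88.7 CPM and the other 3 at 63.2 to 68.2 CPM, below the 5 D2 Con libraries at 74.8 to 80.8 CPM. With all libraries the log2 fold change was −0.11 (adjusted p = 0.297), and without D1 Con replicate 1 it was −0.23 (adjusted p = 0.00815). *Lrrtm2* had its largest difference in Res, −0.25 (adjusted p = 0.0753), where D2 Res was at 81.5, 89.6, 87.6, 82.8 and 62.9 CPM and D1 Res at 63.4, 70.8, 70.3 and 63.7 CPM. Without D2 Res replicate 5, the lowest of its group, it was called (−0.32, adjusted p = 0.0145). *Lrrtm4* differed by 0.11, 0.04 and −0.04 in Con, Res and Sus.

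**Figure D3:**
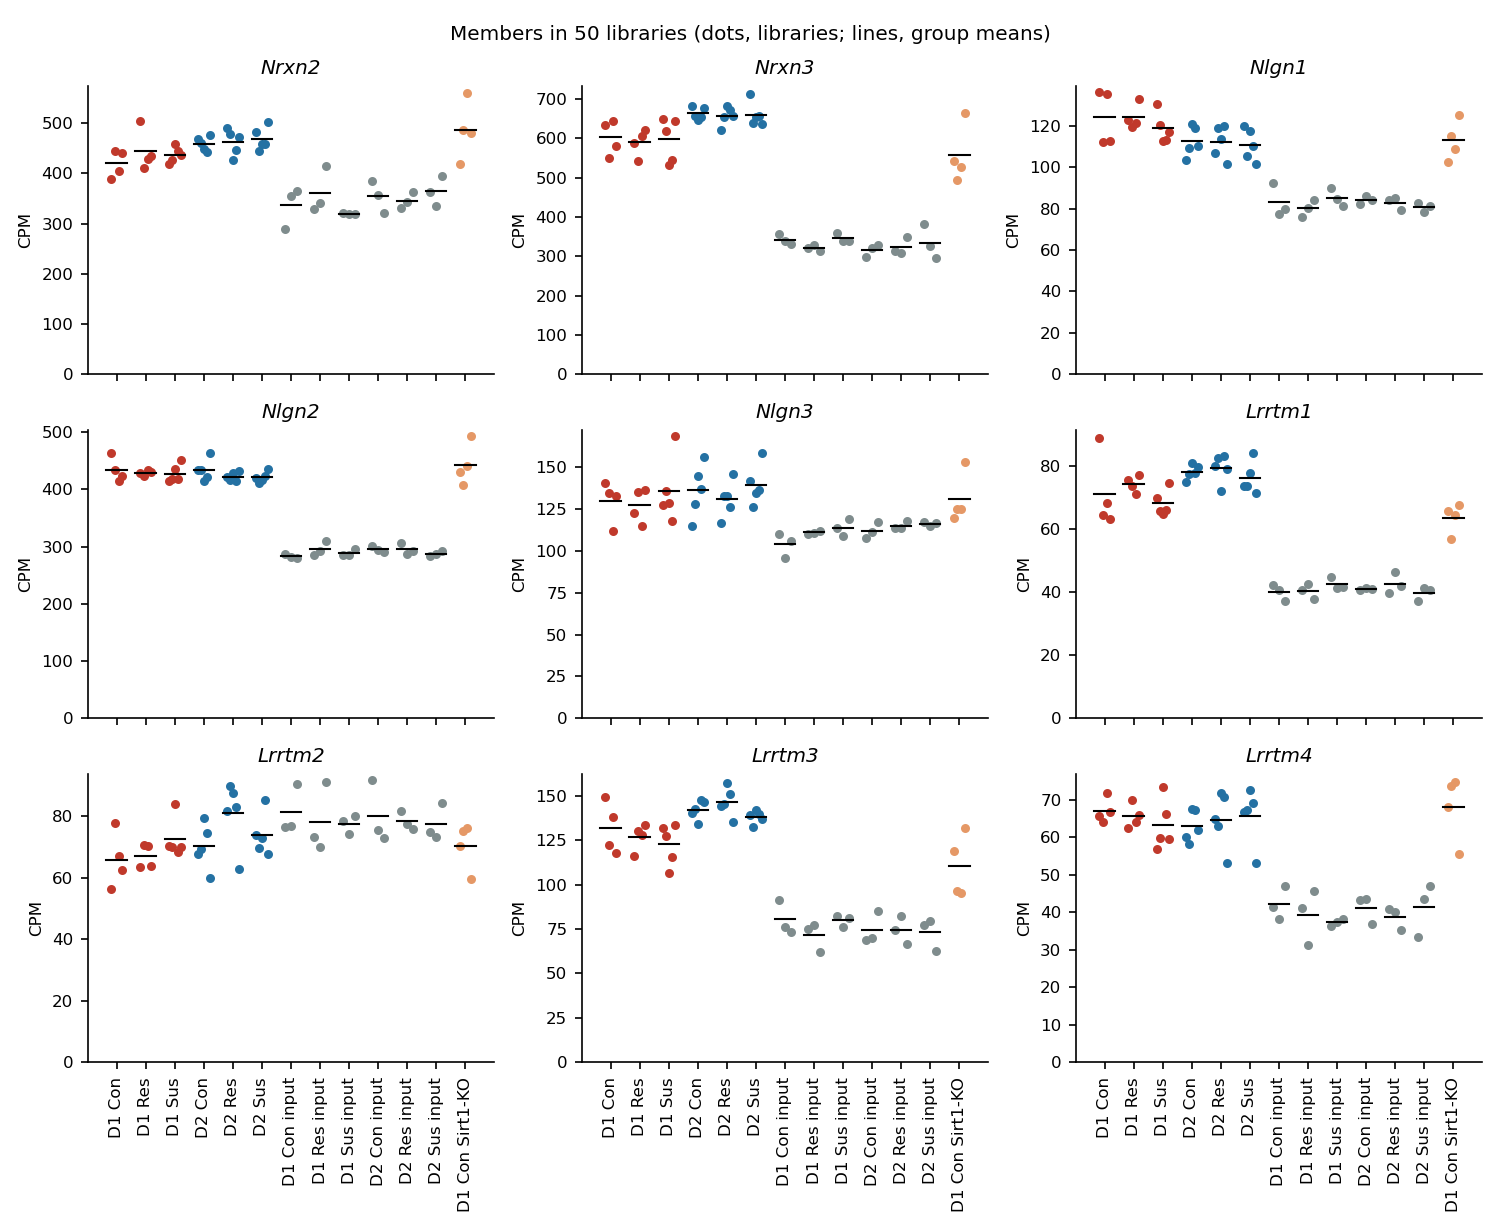
Level in CPM of each of the 9 genes in the 50 libraries, with a dot for each library and a line for each group mean, on axes that start at 0. The IP groups of *Nrxn3* lie between 494 and 713 CPM and its input groups between 295 and 382 CPM, and the input groups of *Lrrtm2* lie within or above the range of its IPs.

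A contrast of the mean of the 3 D1 groups with the mean of the 3 D2 groups, 13 against 15 IPs, was added after the data were seen. It called 4 of the 9 genes, *Nrxn3* (−0.13, SE 0.03, adjusted p = 0.0015), *Lrrtm3* (−0.14, SE 0.03, adjusted p = 0.00154), *Nlgn1* (0.15, SE 0.04, adjusted p = 0.00174) and *Lrrtm1* (−0.11, SE 0.04, adjusted p = 0.0238). The same contrast called 40.8% of all genes, so that 4 of 9 is close to the background. *Nlgn2* differed by 0.03, with a 95% interval from −0.01 to 0.08. The cortical excitatory markers that were higher in D1 IPs (median log2 fold change 2.00 in Con) and the cholinergic markers that were lower (median −3.50) differed far more than the 9 genes did. The share of reads on no annotated feature ran from 10.4% to 13.9% in D1 IPs and from 11.1% to 17.6% in D2 IPs. Within its group it was highest in replicate 5 of D1 Sus (13.9%), D2 Res (17.1%) and D2 Sus (17.6%). In replicate 5 of D2 Con it was 15.8%, and no replicate 5 of D1 Con or D1 Res was used. Without a replicate 5, *Lrrtm2* in Res and *Nrxn3* and *Lrrtm3* in Sus were called, as given above. The part of these markers and of this share in the small differences was not tested.

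**Figure D4:**
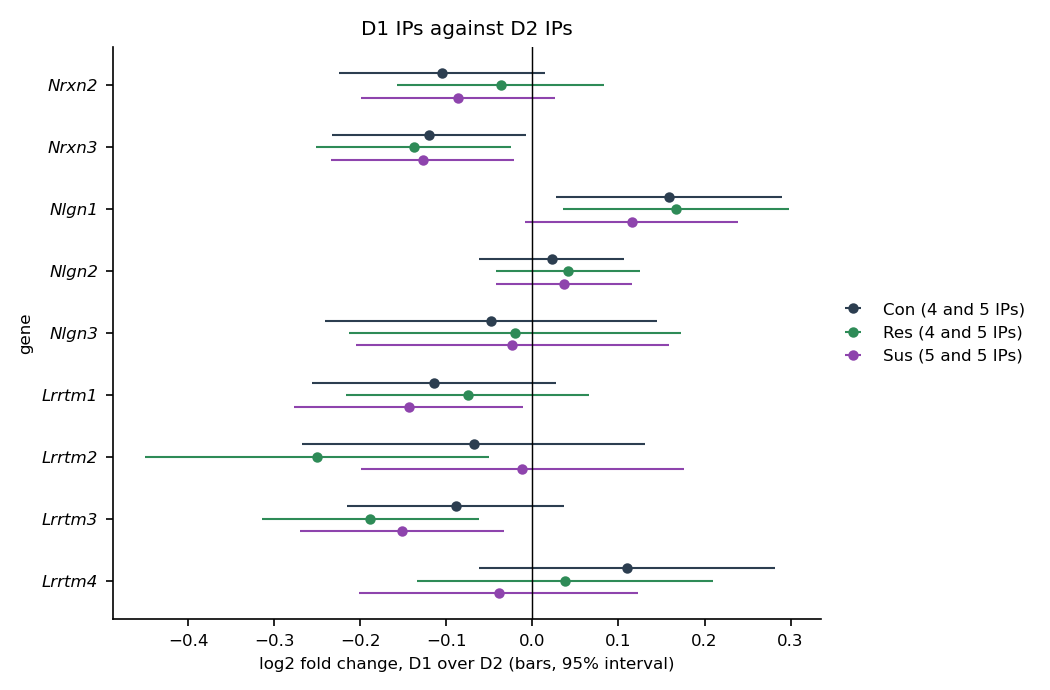
Log2 fold change of D1 over D2 IPs for the 9 genes in Con, Res and Sus mice, with 95% confidence intervals. *Nrxn3* and *Lrrtm3* are left of 0 and *Nlgn1* is right of 0 in all 3 groups, with point estimates from −0.19 to 0.17 among these 3 genes.

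Chronic social defeat was tested within each line as Sus against Con, Res against Con and Sus against Res. The D1 IPs gave 0 of 27 tests of a gene with an unadjusted p under 0.05, the lowest being 0.081, beside 5.34%, 2.11% and 4.23% of all genes in the 3 contrasts. The count became 1 without D1 Con replicate 1 (*Lrrtm1*), 2 (*Lrrtm2*) or 4 (*Lrrtm3*) or D1 Sus replicate 5 (*Lrrtm1*). The D2 IPs gave 1 of 27, *Lrrtm2* in Res against Con, beside 3.02% of all genes in that contrast and 3.68% and 1.66% in Sus against Con and Sus against Res. No member was called after adjustment in either line, where the whole table held 1 called gene, in Res against Con of D1 (0.00703% of all genes). The 95% intervals lay within 0.831 to 1.26-fold in D1 and 0.805 to 1.32-fold in D2. *Lrrtm2* was at 67.6, 69.3, 79.5, 74.4 and 60.0 CPM in D2 Con and at 81.5, 89.6, 87.6, 82.8 and 62.9 CPM in D2 Res. The groups overlapped, the log2 fold change was 0.21 (unadjusted p = 0.0314, adjusted p = 1), and the unadjusted call was lost without D2 Con replicate 1, 2 or 5 or D2 Res replicate 2, 3 or 4 (0.16 to 0.21). Without D2 Res replicate 5 a second test passed, *Lrrtm2* in Sus against Res (−0.21).

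Whether a stress effect differed between D1 and D2 was tested directly for Sus against Con and Res against Con. Of 18 such tests 0 had an unadjusted p under 0.05, beside 1.82% and 2.36% of all genes. The lowest p was 0.197, for *Lrrtm2* in Res against Con. In inputs, with the line as a covariate, 1 of 27 stress tests had an unadjusted p under 0.05, *Nlgn3* in Sus against Con (0.09, adjusted p = 0.979), beside 4.47% of all genes in that contrast, 3.23% in Res against Con and 5.54% in Sus against Res. Its control inputs were at 110, 95.9, 106, 108, 111 and 117 CPM and its susceptible inputs at 114, 109, 119, 117, 115 and 117 CPM, with overlap. The unadjusted call was lost without D1 Con input 2 or D1 Sus input 3 and with library totals, and a second test passed without D2 Con input 3 (*Nlgn3* in Res against Con) or D2 Sus input 3 (*Nrxn3* in Sus against Res).

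Inputs of the D1 line and the D2 line, which hold whole tissue, served as a background for the comparison of MSN types. None of the 9 genes was called (0 also at an unadjusted p under 0.05), beside 0.0266% of all genes called and 4.82% at an unadjusted p under 0.05. The intervals lay within 0.876 to 1.15-fold. *Nrxn3* was at 314 to 359 CPM in the 9 inputs of the D1 line and at 295 to 382 CPM in the 9 of the D2 line.

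The libraries labelled Sirt1-KO were compared with D1 Con. *Sirt1*, the targeted gene that encodes a NAD-dependent deacetylase, was at 15.9, 16.8, 13.7 and 10.6 CPM in the libraries labelled Sirt1-KO and at 14.0, 17.1, 15.6 and 14.9 CPM in D1 Con. The groups overlapped (log2 fold change −0.10, SE 0.13, adjusted p = 0.768), so that the counts do not check the label. They are sums over the whole gene, which the loss of some exons need not lower.

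None of the 9 genes was called between them, beside 1.66% of all genes, and 2 of 9 had an unadjusted p under 0.05, beside 17.3%. DESeq2 also called 0. *Nrxn2* was at 418, 487, 560 and 481 CPM in the libraries labelled Sirt1-KO and at 389, 445, 406 and 440 CPM in D1 Con, which overlapped (0.22, SE 0.09, unadjusted p = 0.0279, adjusted p = 0.223). *Lrrtm3* was at 119, 96.5, 95.1 and 132 CPM against 149, 122, 138 and 118 CPM, and also overlapped (−0.24, SE 0.11, unadjusted p = 0.0413, adjusted p = 0.264). Without Sirt1-KO replicate 5, at 132 CPM, *Lrrtm3* was called (−0.34, adjusted p = 0.0391). That library had the largest share of reads on no annotated feature among those labelled Sirt1-KO, 12.6%. The other 7 genes had log2 fold changes from −0.15 (*Lrrtm1*) to 0.10 (*Lrrtm2*). All 9 pairs of groups overlapped, beside 9.40% of all genes that did not, and the intervals lay within 0.721 to 1.33-fold.

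**Figure D5:**
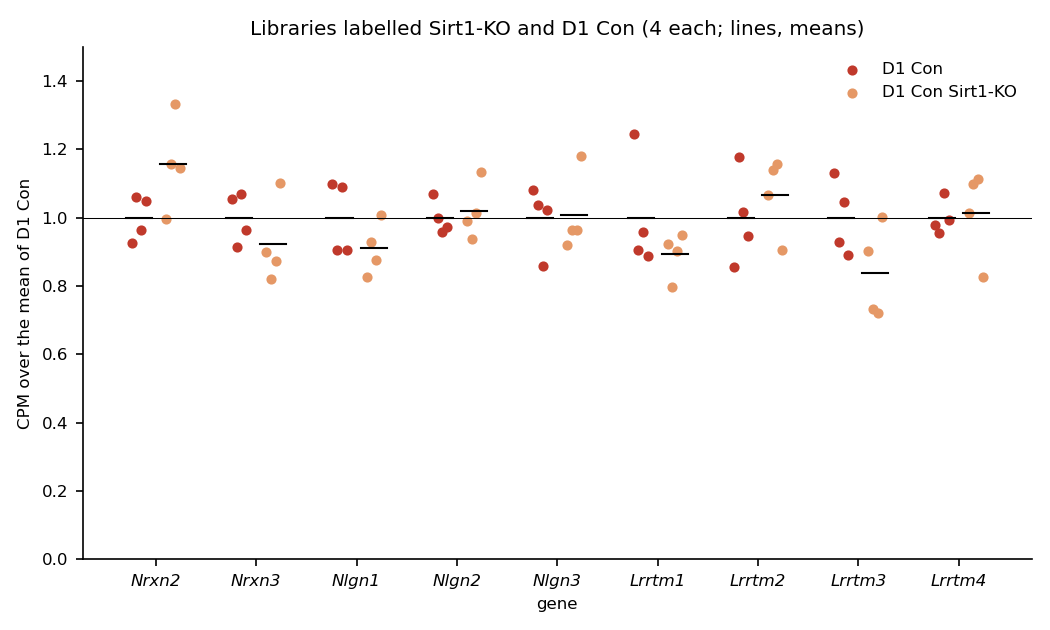
CPM of each gene in the 4 libraries labelled Sirt1-KO and the 4 D1 Con libraries, divided by the mean of D1 Con, with a dot for each library and a line for each mean. The dots of both groups overlap for each of the 9 genes.

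Cell type markers also moved between these groups. The 6 cortical excitatory markers summed to 886 to 1677 CPM in the libraries labelled Sirt1-KO and 407 to 1073 CPM in D1 Con, with 6 of 6 higher at an unadjusted p under 0.05 and 0 after adjustment (median 0.85). The 4 D1-MSN markers summed to 933 to 1162 and 1227 to 1573 CPM, with 4 of 4 lower at an unadjusted p under 0.05 and 1 after adjustment (median −0.34). The 4 cholinergic interneuron markers summed to 4.17 to 8.48 and 10.1 to 11.6 CPM, and the 4 GABAergic interneuron markers to 145 to 172 and 109 to 137 CPM. The sums of the other marker lists overlapped. The part of these markers in the differences of *Nrxn2* and *Lrrtm3* was not tested, and the label and any difference in when or how the 4 libraries were made cannot be told apart.

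The genes that bind or surround these proteins were taken from lists. Of 11 tested secreted linkers of neurexins, such as cerebellins, C1q-like proteins and neurexophilins, 7 were called higher and 1 lower in D1 Con than in D2 Con, beside 14.0% of all genes called in either direction, with a median log2 fold change of 1.03 beside −0.01 for all genes. *Cbln2*, a cerebellin that bridges neurexins to postsynaptic receptors, was at 12.1 ± 4.33 CPM in D1 Con (SD, n = 4) and 4.09 ± 0.898 CPM in D2 Con (SD, n = 5), with a log2 fold change of 1.59 (adjusted p = 4.34e-05). *C1ql3* differed by 1.60 (adjusted p = 0.00409) and *Nxph4* by 1.44 (adjusted p = 0.000139), while *Cbln4*, at 17.1 ± 2.54 and 23.9 ± 2.08 CPM, was lower (−0.47, adjusted p = 0.011). The cortical excitatory markers had a median of 2.00 in the same comparison, with sums of 407 to 1073 and 91.4 to 285 CPM, and their part in these differences was not tested.

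Of 11 other membrane ligands of neurexins 2 were higher and 1 was lower in D1 Con, beside the same 14.0% of all genes: the glypican *Gpc4* (1.54, adjusted p = 0.0012), *Igsf21* (0.65, adjusted p = 0.00993) and the latrophilin *Adgrl2* (−0.38, adjusted p = 0.00148). The 2 MDGA genes, whose products bind neuroligins and block their contact with neurexins, were not called. Among 13 receptor phosphatases of the LAR type and their ligands, again beside 14.0%, 2 were higher (*Slitrk1* 0.50, adjusted p = 0.00165, and *Ptprf* 0.21, adjusted p = 0.00887) and 2 lower (*Slitrk6* −0.87, adjusted p = 0.00334, and *Ntrk3* −0.20, adjusted p = 0.0126).

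Of 11 other leucine-rich repeat and synaptic adhesion genes, 2 were higher and 4 lower, beside 14.0% of all genes called. *Flrt3*, a ligand of latrophilins, was at 79.7 ± 6.93 CPM in D1 Con (SD, n = 4) and 117 ± 5.37 CPM in D2 Con (SD, n = 5), a log2 fold change of −0.53 (adjusted p = 2.71e-06). The netrin-G *Ntng2* (1.52, adjusted p = 0.000288) and the teneurin *Tenm3* (0.32, adjusted p = 0.0178) were higher, and *Flrt1* (−0.35, adjusted p = 0.0431) and *Tenm4* (−0.28, adjusted p = 0.00973) lower. Of 19 cytoplasmic scaffolds 3 were higher and 2 lower, beside the same share. *Dlgap1*, a protein of the excitatory postsynaptic density, differed by 0.66 (adjusted p = 0.000624), *Apba2* by 0.28 (adjusted p = 0.00237) and *Apba1* by 0.22 (adjusted p = 0.0403). *Shank3*, which ties the postsynaptic density together, differed by −0.30 (adjusted p = 0.0108) and *Gphn*, the gephyrin of inhibitory synapses, by −0.23 (adjusted p = 0.00389). Of the 3 STAR splicing factors that act on neurexin transcripts, *Khdrbs2* was lower in D1 Con (−0.26, adjusted p = 0.0224).

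Against input, where 70.4% of all genes were called in D1 and 71.7% in D2 and 34.5% were higher in each, the partners of the 9 genes moved in both directions. Of the 70 tested genes of the 7 lists 68.6% were called in D1 and 74.3% in D2, which is near the background. Of the 11 secreted linkers 1 was higher and 4 were lower in D1 Con IPs, and 1 was higher and 8 were lower in D2 Con IPs (medians 0.17 and −1.21). Of the 19 scaffolds 12 were higher and 3 lower in D1, and 11 and 4 in D2 (medians 0.31 and 0.27). Of the 11 other membrane ligands 7 and 6 were higher, and 1 and 2 lower. Between the libraries labelled Sirt1-KO and D1 Con, 1 of the 70 tested genes of these lists was called (1.43%, beside 1.66% of all genes): *Slitrk6*, a ligand of LAR-type phosphatases, at 1.81 ± 0.471 CPM against 5.16 ± 1.08 CPM (SD, n = 4 each; log2 fold change −1.50, adjusted p = 0.00942). At an unadjusted p under 0.05, 24 of the 70 were higher and 6 lower, beside 17.3% of all genes in either direction.

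Ratios of 2 genes within a library need no scaling across libraries. The ratio of the count of *Nrxn3* to that of *Nrxn2* was 1.43 in D1 Con, 1.45 in D2 Con and 1.14 in the libraries labelled Sirt1-KO (geometric means). For 5 ratios in 4 comparisons, 0 of 20 two-sided exact permutation tests passed after adjustment. The lowest p, 0.0714 (adjusted p = 0.715), was for *Lrrtm4* over *Lrrtm3* in D1 Con against D2 Con, where the smallest p that the exact test can give is 0.00794. With 4 libraries against 4, as for Sirt1-KO, that smallest p is 0.0286. Adjusted over the 20 tests, a single ratio at either smallest p could not pass. The count of 0 therefore says little about a change in any one ratio.

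The genes whose profile was nearest to that of the highest member of each family were found by the root mean square difference of centred mean log2 CPM over 12 groups of IPs and inputs, among 15415 genes. For *Nrxn3* they were *Top1* (0.03), *Pdxk* (0.0338) and *Ankmy2* (0.0349), beside a median of 0.512 over all genes. For *Nlgn2* they were *Cops4* (0.0164), *Vps53* (0.0169) and *Atg9a* (0.0192), beside 0.347, and for *Lrrtm3* *Prkar2b* (0.0268), *Akap5* (0.0298) and *St8sia3* (0.0304), beside 0.47. Between libraries of a group, *Nlgn2* varied least, with a pooled SD of log2 CPM of 0.0473 in IPs and 0.0375 in inputs. *Lrrtm2* (0.154) and *Nlgn3* (0.149) varied most in IPs, and *Lrrtm4* (0.184) in inputs.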

How the data were processed

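RNA-seq libraries were 28 RiboTag IPs, 18 inputs and 4 D1 IPs labelled Sirt1-KO, each from 2 pooled mice, grouped by their deposited labels. Samples of a group are separate pools of mice. The deposited values are raw read counts per gene symbol: the authors trimmed poly-A libraries of a stranded kit with cutadapt, aligned them to mm10 with STAR and counted with HTSeq, and used DESeq2 and HOMER afterwards. Tool versions, the annotation and the strand setting of the counting are not given in the sources used here. The 4 D1 Con libraries stand in both tables with identical counts and were used once, 5 entries that name no gene (21.5% ± 2.83 of reads in IPs and 37.8% ± 1.16 in inputs) were left out, and 2 columns with no sample description here (D1 Con 5 and D1 Res 5) were not used. Among the counts with Sirt1-KO, 5 symbols had more than 1 entry. No pair among 76 pairs of replicates differed by as little as sampling noise (lowest chi-square per gene 3.60).

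Counts were scaled with TMM factors and tested with edgeR 4.0.16 (quasi-likelihood F test, filterByExpr set to at least 10 counts in a library and 15 in total, R 4.3.3) over 14224 genes in the 28 IPs, 14922 in the 15 control IPs and inputs, 15063 and 14820 in the inputs by line and by stress and 13626 in Sirt1-KO with D1 Con, and adjusted by Benjamini-Hochberg over all genes of a model. A call was an adjusted p under 0.05, or, for stress contrasts, an unadjusted p under 0.05 as in the study. Standard errors follow from the F statistic. CPM levels use TMM factors over all 50 libraries. Ratios of counts plus 0.5 were compared by two-sided exact permutation tests. Alternatives were DESeq2 1.42.0, RLE factors, library totals, other filters, other sets of libraries, other thresholds, a replicate block and leaving out each library. The tests were checked on simulated counts with known changes of about 1.5-fold or more, for the first comparison of each model. Smaller changes were not simulated, so the check does not cover them. Figures used Python 3.11.15 and matplotlib 3.10.9.

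The labels state that inputs are leftovers of the homogenates, and numbers are shared between an IP and an input. Deviations of same-numbered IP and input libraries from their group means correlated at −0.105 to 0.43, so the blocked result is printed beside the comparison where it changed a call. By the labels, other groups share only a number. Deviations of same-numbered libraries correlated at 0.0734 to 0.176 between D2 Res and D2 Con and at 0.0423 to 0.248 between D2 Sus and D2 Con. Between D2 Sus and D2 Res they ran from −0.0958 to 0.216, and between the D1 stress groups from −0.101 to 0.165. The main comparisons of IPs did not include the number, and a replicate block was run as an alternative.

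The members and gene lists were chosen with earlier results of these data known. Every member is named, and of each partner list the genes called in D1 Con against D2 Con are named, up to 3 in each direction by fold. *Slitrk6* in the Sirt1-KO comparison was named for its value there.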

Additional observations from a re-analysis of the deposited data

Results flagged for a closer look

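In 63 groups of 4 or 5 libraries (9 genes in 7 groups), a library was looked for that stood far from the rest of its group, by Dixon's 95% limit on the gap to the nearest library divided by the range of the group. Chance gives about 1 in 20 such groups, and 2 were found. *Nrxn3* was at 713 CPM in D2 Sus replicate 1 and next at 657 CPM in its group, a gap of 0.739 of the range. *Lrrtm2* was at 83.9 CPM in D1 Sus replicate 3 and next at 70.2 CPM, a gap of 0.886 of the range. Both libraries were left out in turn, and neither changed a call in a comparison of *Nrxn3* or *Lrrtm2* that used its group.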

How the results depend on the processing

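No difference of a member past its threshold changed sign under an alternative. Of the values of single members under alternatives, 3334 were unchanged. The threshold was passed by 34 where the reported value had not passed it, and 27 no longer passed it. Unchanged values kept their side of the threshold or, for levels per length, moved by less than the spread between libraries. They include values that passed in neither fit, among them the ratios. Another 18, all levels per length, moved by more than the spread between libraries with the longest transcript as the length. DESeq2 and RLE factors changed no count of calls by over 1.5 times. In D1 Con against D2 Con the count of 0 became 4 with the mean of the 3 stress groups (0 to 1 without 1 library). In Res the count of 1 became 0 with genes of at least 1 count or a fold over 1.5, and 2 with genes of a mean of at least 50 counts or with a replicate block (0 to 2 without 1 library), and in Sus the count of 0 was 0 to 2 without 1 library. The stress count of D1 IPs, 0, became 1 with a replicate block or with the compared libraries alone (0 to 1 without 1 library). That of D2 IPs, 1, became 0 with adjusted p (0 to 2 without 1 library), and that of inputs, 1, became 0 with library totals or adjusted p (0 to 2 without 1 library). IP against input fell from 9 to 5 in D1 and from 8 to 3 in D2 with a fold over 1.5 (8 to 9 and 7 to 9 without 1 library). In the Sirt1-KO comparison, where numbers give no pairing (correlation of deviations 0.0183 to 0.0595 over 3 pairs), a replicate block moved 0 to 4: *Nrxn2* (0.26), *Nrxn3* (−0.23), *Lrrtm2* (0.27) and *Lrrtm3* (−0.37), against 0 to 1 without 1 library. D2 Res and D2 Con had each library best matched by its own number, with correlations of 0.0734 to 0.176. The added contrast of 13 against 15 IPs gave 3 to 5 calls in place of 4. The input lines and the tests of stress by line had 0 in each fit run. The ratios had 0 too, though a single ratio could not pass after adjustment. With library totals the higher genes made up 68.0% of all calls in D1 Con against D2 Con (55.2% with TMM) and 18.9% in Sirt1-KO against D1 Con (37.2% with TMM). For the input lines, the compared libraries alone are the same model. The causes of these moves were not tested. Where intervals were given as folds, differences beyond these folds were outside the intervals. The folds are not limits of detection, since smaller differences could be called, as for *Lrrtm3* in Res.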

Other observations

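Between inputs of one group several of the 9 genes varied with the summed level of cell type markers. The relation was noticed in these data, and 108 relations (9 genes with 12 marker sums or shares) were computed on deviations from the group means, with two-sided permutation of libraries within groups, exact over 46656 orders for the 18 inputs and 100000 draws for the 28 IPs. In inputs 15 of 108 passed at an adjusted p under 0.05 and in IPs 7 of 108. The deviations share a library and its scaling factor, and 18 inputs in 6 groups leave fewer independent values than libraries.

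*Nrxn3* was higher in inputs with more cholinergic marker RNA (r = 0.91, permutation p = 4.3e-05, rho = 0.92, permutation p = 6.4e-05, adjusted p = 0.0023) and lower in those with more cortical excitatory marker RNA (r = −0.89, permutation p = 0.00017, rho = −0.84, permutation p = 0.00032, adjusted p = 0.0062). Without the 2 libraries farthest from the median these were 0.84 and −0.75. *Lrrtm3* varied with the D2-MSN markers (r = 0.87, permutation p = 2.1e-05, the smallest the permutations can give, rho = 0.86, permutation p = 2.1e-05, 0.83 without 2 libraries, adjusted p = 0.0023). *Lrrtm4* varied with the cortical markers (r = 0.90, permutation p = 0.00084, rho = 0.90, permutation p = 0.0011, 0.88 without 2 libraries, adjusted p = 0.015) and as strongly, in the other direction, with the oligodendrocyte markers (r = −0.91, permutation p = 0.00054, rho = −0.85, permutation p = 0.00086, −0.85 without 2 libraries, adjusted p = 0.012). Its relations to the cholinergic markers (r = −0.89, permutation p = 0.00047, rho = −0.87, permutation p = 0.0012, −0.84 without 2 libraries, adjusted p = 0.012) and the oligodendrocyte precursor markers (r = −0.87, permutation p = 0.0022, rho = −0.78, permutation p = 0.0083, −0.81 without 2 libraries, adjusted p = 0.026) passed too. *Nrxn2* went against the D1-MSN markers (r = −0.90, permutation p = 0.0021, rho = −0.86, permutation p = 0.0023, −0.86 without 2 libraries, adjusted p = 0.026).

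In the 28 IPs the relation of *Nrxn3* to the cortical markers had the same sign (r = −0.51, permutation p = 0.00089, rho = −0.54, permutation p = 0.0017, −0.47 without 2 libraries, adjusted p = 0.014), as did that of *Lrrtm3* to the D2-MSN markers (r = 0.68, permutation p = 0.00059, rho = 0.57, permutation p = 0.0041, 0.66 without 2 libraries, adjusted p = 0.013). The other relations named above for inputs did not pass in IPs, among them *Nrxn3* with the cholinergic markers (r = 0.42, rho = 0.42, adjusted permutation p = 0.27), *Lrrtm4* with the cortical (r = 0.03, rho = 0.21, adjusted permutation p = 0.94) and oligodendrocyte markers (r = −0.38, rho = −0.34, adjusted permutation p = 0.30), and *Nrxn2* with the D1-MSN markers (r = −0.46, rho = −0.47, adjusted permutation p = 0.095). *Lrrtm4* was lower in IPs with a larger share of reads on no feature (r = −0.75, permutation p = 0.00032, rho = −0.68, permutation p = 0.00056, −0.58 without 2 libraries, adjusted p = 0.012). The remaining relations that passed were, in inputs, those of *Nrxn2* to the D2-MSN and general neuron markers, of *Nrxn3* to the markers of oligodendrocytes and their precursors, of *Lrrtm2* to the cholinergic markers and of *Lrrtm3* to the D1-MSN and general neuron markers. In IPs they were those of *Lrrtm2* to the microglial markers and the share of reads on no feature and of *Lrrtm3* to the D1-MSN and general neuron markers.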
